A study of Mus musculus with 6 samples.

Results

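The lysyl oxidase and elastic fibre genes examined here are Lox, Loxl1, Loxl2 and Loxl3 (lysyl oxidases), Eln (elastin), Fbn1 and Mfap5 (microfibrils), and Fbln1, Fbln2 and Efemp1 (fibulins). Transcripts were taken by their GENCODE M21 gene symbol, and all 10 genes had reads in all 6 mice, among 23492 genes with reads. They were chosen by gene family with earlier results of these data, reads in cold against ctrl, in view, so their differences between groups are given as a description. Reads fell on 30 of their 40 annotated transcripts. The tissue was epididymal white adipose tissue (eWAT), the fat pad beside the epididymis, whose poly-A RNA was read as unamplified cDNA by nanopore sequencing. The cold group was mice 7, 12 and 16, kept singly for 24 h at 4 °C until their tissue was taken. The ctrl group was mice 5, 6 and 10, and base housing was 22 to 24 °C. The labels do not say whether ctrl mice were housed alone. All 6 were male wild type C57BL/6N mice of 20 weeks, and each is a separate animal.

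Elastic fibres give tissue its recoil. Cells secrete tropoelastin onto a scaffold of fibrillin microfibrils, with fibulins and microfibril-associated glycoproteins bound to both, and lysyl oxidases, which are copper-dependent amine oxidases, then oxidise lysines so that elastin and collagen become cross-linked. In white fat these proteins come mainly from fibroblasts, adipocyte precursors and cells of vessel walls, and the matrix they build surrounds adipocytes, whose volume changes as lipid is stored or released.

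Total reads per mouse were 726283 to 1194134 in the cold and 939107 to 1341592 in ctrl, so that 1 read was worth 0.747 to 1.38 CPM (read counts scaled to library size, relative to the reads assigned to genes). The adipocyte list (6 genes, among them Adipoq and Plin1) held 20209 to 21874 summed CPM in the cold and 25459 to 26979.5 in ctrl, in accord with the labelled tissue. None of its 6 genes passed the edgeR test, and 2, Cfd and Lep, had an unadjusted p under 0.05, beside 8.43% of all genes. They went opposite ways: Cfd, the secreted protease adipsin and the most abundant of the list, had 10879 ± 760.4 CPM in the cold and 15536 ± 914 CPM in ctrl, while Lep, the hormone leptin, had 685 ± 184 CPM in the cold and 437 ± 44.4 CPM in ctrl (SD, n = 3 each). Libraries of the cold group held epithelial markers. The list of 8 summed to 130 to 381 CPM in the cold and 5.23 to 22.4 CPM in ctrl. All 4 that could be tested (Epcam, Cldn7, Krt8 and Krt18) passed as higher, beside 0.655% of all genes called in either direction. Epcam lost the call by DESeq2 (adjusted p = 0.245) and Cldn7 by edgeR without cold 12 (adjusted p = 0.0821). Crisp1, a secreted protein of the epididymal epithelium, had 306 CPM in cold 7, 0 in cold 12 and 2.55 in cold 16, against at most 0.883 in ctrl mice. Lcn8 and Defb20, 2 other epididymal genes of that list, had 1 read each in all 6 mice together. Since this is bulk tissue, fewer cells of a type and less RNA per cell cannot be told apart.

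The comparison of cold with ctrl asks whether genes of the elastic fibre differ after a day in the cold. The lysyl oxidase Lox stood highest in the cold relative to ctrl, followed by Eln and Loxl1, while the fibulins Efemp1 and Fbln1 had lower means in the cold. None of these differences passed the threshold of 0.05 on the adjusted p (edgeR quasi-likelihood test over 9772 genes). Loxl3, with 52 reads in all, did not pass the read filter. Of the other 9 genes 0 were called, with adjusted p of 0.176 to 0.972, and 0 by DESeq2 and 0 by limma-voom. Over all genes edgeR called 64 (35 without cold 12, 199 without cold 7 and 106 without ctrl 5), which is 0.655%, DESeq2 0.471% and limma-voom 0.491%. At an unadjusted p under 0.05 there were 3 of the 9 (Lox, Loxl1 and Eln), all higher in the cold, beside 8.43% of all genes and 4.72% counting those higher in the cold. The log2 fold change was above 0 in 7 of the 9, with a median of 0.31, and in 4965 of all 9772 genes (50.8%), with a median of 0.01. Every cold mouse lay above every ctrl mouse for Lox and Loxl1 and for 5.96% of all genes tested, and in none of the 10 did every cold mouse lie below every ctrl mouse, as 7.7% of all genes did. The epithelial sum was higher and the adipocyte sum, in which Cfd has most of the gap, lower in all 3 cold mice than in all ctrl mice, and the part of either in these differences was not tested.

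**Figure D1:**
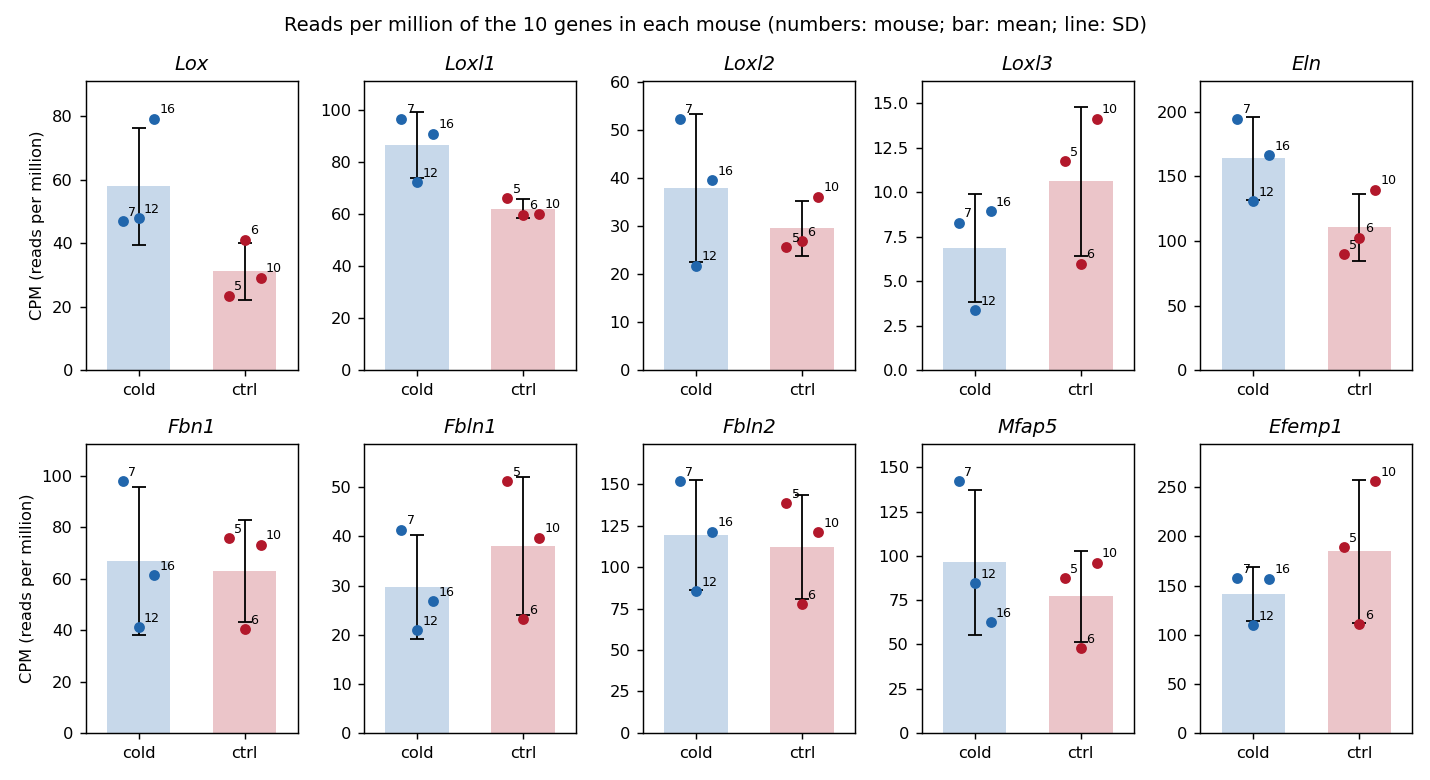
Reads scaled to library size (CPM, y axis) of the 10 genes in each mouse, with cold (blue) left of ctrl (red). Points are mice with their numbers, bars are group means and lines are the SD (n = 3 each). The cold mice lie above all ctrl mice for Lox (46.9 to 79.2 against 23.5 to 41.1 CPM) and Loxl1 (72.1 to 96.5 against 59.7 to 66.1 CPM), and the groups overlap for the other 8 genes.

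Lox encodes the founding lysyl oxidase, which cross-links elastin and collagens (ENSMUSG00000024529.14, GRCm38 chromosome 18, 52516067 to 52529867, minus strand). It had 46.9, 47.8 and 79.2 CPM in cold 7, 12 and 16, against 23.5, 41.1 and 29.1 CPM in ctrl 5, 6 and 10. These are 34, 57 and 62 reads in the cold and 22, 55 and 33 reads in ctrl. Cold 16 stood well above the other cold mice, and the gap between the lowest cold mouse and ctrl 6 was small. The means were 58.0 ± 18.4 CPM in the cold and 31.2 ± 8.99 CPM in ctrl (SD, n = 3 each), and the log2 fold change was 0.87 ± 0.25 (SE), with a 95% interval of 0.35 to 1.38. It was 0.60 without cold 16 and 1.13 without ctrl 6, and Lox passed the threshold without cold 7 (edgeR adjusted p = 0.0477, 0.0477 to 0.495 over the 6 mice left out in turn). It also passed when no read filter was used (edgeR adjusted p = 0.0136), and in none of the other 12 settings tried. AC161119.1, annotated antisense to Lox, had 1 read in the cold and 1 in ctrl.

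Lox reads fell on 2 annotated transcripts with the same 1233 coding bases, Lox-201 and Lox-202, which differ only outside the coding part. Lox-202 took 29.4%, 28.1% and 29.0% of the gene's reads in cold 7, 12 and 16, against 18.2%, 27.3% and 18.2% in ctrl 5, 6 and 10. Every cold share was above every ctrl share, but the margin over ctrl 6 was under 1 percentage point. How often shares separate in this way over all transcripts was not counted. The test of how Lox reads divide over its transcripts (edgeR's diffSpliceDGE, Simes) gave an unadjusted p of 0.606. The ctrl shares rest on as few as 4 of 22 reads (ctrl 5, 95% Wilson interval 7.31% to 38.5%, counting error only). Both transcripts had every cold mouse above every ctrl mouse, as did 5.57% of all transcripts tested. On the log2 scale the fold change was 0.75 ± 0.26 (SE) for Lox-201 and 1.19 ± 0.41 for Lox-202.

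Loxl1 encodes the lysyl oxidase known from mutant mice to maintain elastic fibres (ENSMUSG00000032334.10, chromosome 9, 58287738 to 58313186, minus strand). It had 96.5, 72.1 and 90.7 CPM in cold 7, 12 and 16, against 66.1, 59.7 and 60.01 CPM in ctrl 5, 6 and 10. The means were 86.4 ± 12.7 CPM in the cold and 62.0 ± 3.61 CPM in ctrl (SD, n = 3 each), and the ctrl mice lay close together. Its log2 fold change was 0.49 ± 0.17 (SE), interval 0.13 to 0.85. This ranged from 0.39 to 0.62 with 1 mouse left out, but was 0.30 from the X1 files alone and 0.71 from the X2 files alone, which are the 2 deposited files of each mouse. All 437 reads of Loxl1 fell on 1 transcript, Loxl1-201.

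Loxl2, which cross-links collagen IV of basement membranes among other substrates, was listed on chromosome 14 (ENSMUSG00000034205.16, 69609068 to 69695834, plus strand). It had 52.4, 21.8 and 39.6 CPM in cold 7, 12 and 16, against 25.6, 26.9 and 36.2 CPM in ctrl 5, 6 and 10. Cold 12 was the lowest of the 6 mice and cold 7 the highest, so the groups overlapped over the whole ctrl range. The means were 37.9 ± 15.4 CPM in the cold and 29.6 ± 5.78 CPM in ctrl (SD, n = 3 each). The log2 fold change of 0.31 ± 0.28 (SE) was -0.0048 without cold 7 and 0.65 without cold 12. Loxl2-201 held 95.4% of the reads.

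Loxl3 had the fewest reads of the 10 genes (ENSMUSG00000000693.10, chromosome 6, 83034173 to 83052562, plus strand). It encodes a lysyl oxidase with scavenger receptor domains, as Loxl2 does. Its reads were 6, 4 and 7 in cold 7, 12 and 16, against 11, 8 and 16 in ctrl 5, 6 and 10, or 6.86 ± 3.05 CPM in the cold and 10.6 ± 4.19 CPM in ctrl (SD, n = 3 each). The groups overlapped, since ctrl 6 with 5.97 CPM was below cold 7 and cold 16. Loxl3 overlaps Htra2 on the other strand, which had 66 reads in the cold and 76 in ctrl. The use of strand in counting is not given in the sources used here, so reads of the pair may have been exchanged.

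Summed over the 4 lysyl oxidase genes, cold 7, 12 and 16 held 204, 145 and 218 CPM, against 127, 134 and 139 CPM in ctrl 5, 6 and 10. The sums did not overlap, with cold 12 only just above ctrl 10. Loxl1 was the largest contributor in all 6 mice, at 41.5% to 49.7% of the lysyl oxidase reads in the cold and 43.0% to 52.1% in ctrl. Lox made up 23.0%, 33.0% and 36.3% of these reads in cold 7, 12 and 16, against 18.5%, 30.7% and 20.9% in ctrl 5, 6 and 10, and these shares overlapped.

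Eln encodes tropoelastin, the soluble precursor that is cross-linked into the elastic core (ENSMUSG00000029675.12, chromosome 5, 134702593 to 134747323, minus strand). It had 194, 131 and 166 CPM in cold 7, 12 and 16, against 89.6, 102 and 139 CPM in ctrl 5, 6 and 10. Ctrl 10 exceeded cold 12 and was the only overlap between the groups. The means were 164 ± 31.9 CPM in the cold and 110.4 ± 25.9 CPM in ctrl (SD, n = 3 each), a log2 fold change of 0.57 ± 0.18 (SE), interval 0.19 to 0.95. It ranged from 0.41 without cold 7 to 0.77 without ctrl 10. Eln passed the threshold only when no read filter was used (edgeR adjusted p = 0.0384, 0.0384 to 0.674 over 14 other settings).

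Eln was the gene with the most reads on transcripts not annotated as coding. Of its 806 reads, 67.6% were on coding models, 14.6% on Eln-203, which the annotation marks for nonsense-mediated decay, and 17.7% on retained-intron models, mainly Eln-204. Eln-203 took 12.8%, 15.4% and 23.1% of the reads in cold 7, 12 and 16, against 10.7%, 9.49% and 15.2% in ctrl 5, 6 and 10. Cold 16 was highest and the groups overlapped, since ctrl 10 was above cold 7. Its log2 fold change was 1.02 ± 0.35 (SE), beside 0.49 ± 0.20 for the coding Eln-201 and 0.63 ± 0.30 for Eln-204. Eln-203 has 24 exons and Eln-204 has 25, against 37 in Eln-201, and cDNA that stops short could be assigned to such shorter models under counting rules not given in the sources used here.

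Fbn1 encodes fibrillin-1, the main microfibril protein (ENSMUSG00000027204.13, chromosome 2, 125300594 to 125507993, minus strand). It had 97.9, 41.1 and 61.3 CPM in cold 7, 12 and 16, against 75.7, 40.3 and 73.2 CPM in ctrl 5, 6 and 10. Cold 12 and ctrl 6 were low together, and the group means of 66.8 ± 28.8 CPM in the cold and 63.1 ± 19.8 CPM in ctrl (SD, n = 3 each) were close. For Fbn1 the log2 fold change was 0.08 ± 0.27 (SE), with an interval of -0.49 to 0.65, and was -0.30 without cold 7 and 0.38 without cold 12. Fbn1-201 and Fbn1-202, with the same 8619 coding bases, held 80.6% and 19.4% of its reads.

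Mfap5 encodes a microfibril-associated glycoprotein, also called MAGP-2, that binds fibrillin (ENSMUSG00000030116.14, chromosome 6, 122505845 to 122529290, plus strand). It had 142, 84.7 and 62.6 CPM in cold 7, 12 and 16, against 87.5, 47.8 and 96.2 CPM in ctrl 5, 6 and 10. Cold 7 was the highest of all mice, and the other cold mice lay inside the ctrl range. The means were 96.4 ± 41.0 CPM in the cold and 77.1 ± 25.8 CPM in ctrl (SD, n = 3 each). The log2 fold change of 0.35 ± 0.26 (SE) was -0.01 without cold 7 and 0.57 without cold 16.

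Mfap5 has 2 short coding exons that some of its transcripts skip, and they are shown because its reads divide over models with and without them. The letters are GENCODE M21 transcript sequence on GRCm38, plus strand, 5′ to 3′. Capitals mark the exon, and lower case the 15 bases on either side that the transcripts share. Exon 6 of Mfap5-207 (chr6:122521893-122521928) has 36 bases, or 12 codons, and Mfap5-201 lacks it. Exon 7 (chr6:122524487-122524510) has 24 bases, or 8 codons, and Mfap5-202 lacks it.
Mfap5-207, exon 6: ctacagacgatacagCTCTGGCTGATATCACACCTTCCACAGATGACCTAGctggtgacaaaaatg
Mfap5-201, same place: ctacagacgatacagctggtgacaaaaatg
Mfap5-207, exon 7: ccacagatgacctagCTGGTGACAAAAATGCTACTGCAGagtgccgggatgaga
Mfap5-202, same place: ccacagatgacctagagtgccgggatgaga

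The full model Mfap5-207 led in every mouse and Mfap5-202 had 26 of the gene's 508 reads. Mfap5-207 took 80.6%, 68.3% and 51.0% of the reads in cold 7, 12 and 16, against 73.2%, 73.4% and 78.9% in ctrl 5, 6 and 10. Cold 16 was the low mouse, at 25 of 49 reads (95% Wilson interval 37.5% to 64.4%), and the groups overlapped. Mfap5-201, without exon 6, had 16.5, 12.6 and 10.2 CPM in cold 7, 12 and 16, against 9.58, 7.45 and 7.05 CPM in ctrl 5, 6 and 10. Its cold values were all above its ctrl values, as for 5.57% of all transcripts tested. It had 35 reads in the cold and 27 in ctrl, with a log2 fold change of 0.73 ± 0.38 (SE).

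Fbln1 encodes fibulin-1, found in the elastic fibre core and in basement membranes (ENSMUSG00000006369.14, chromosome 15, 85205949 to 85286535, plus strand). It had 41.4, 20.97 and 26.8 CPM in cold 7, 12 and 16, against 51.2, 23.1 and 39.7 CPM in ctrl 5, 6 and 10. In each group 1 mouse was at under 24 CPM, and the groups overlapped widely. The means were 29.7 ± 10.5 CPM in the cold and 38.02 ± 14.1 CPM in ctrl (SD, n = 3 each). For Fbln1 the log2 fold change was -0.34 ± 0.30 (SE), interval -0.96 to 0.27, and -0.65 to -0.10 with 1 mouse left out.

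Fbln1 has 2 coding ends, and they are shown because they make different carboxy termini and its reads split almost evenly between them. After a shared stretch, Fbln1-201 goes on with 412 coding bases in 3 exons, of which the first 90 are printed (chr15:85263259-85263348). Fbln1-202 goes on with 352 coding bases in 1 exon, again with the first 90 printed (chr15:85251445-85251534). Capitals mark the part that differs and lower case the last 15 shared bases.
Fbln1-201: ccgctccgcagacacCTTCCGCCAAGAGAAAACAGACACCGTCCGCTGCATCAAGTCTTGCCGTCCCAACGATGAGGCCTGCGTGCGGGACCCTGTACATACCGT
Fbln1-202: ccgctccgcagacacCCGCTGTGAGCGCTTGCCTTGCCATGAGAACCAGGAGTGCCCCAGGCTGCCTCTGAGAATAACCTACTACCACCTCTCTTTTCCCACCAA

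The Fbln1-201 end took 26.7%, 52.0% and 57.1% of Fbln1 reads in cold 7, 12 and 16, against 47.9%, 48.4% and 48.9% in ctrl 5, 6 and 10. The ctrl mice were within 1 percentage point of each other, and the cold mice lay on both sides of them. Cold 7 stood apart with 8 of 30 reads, a Wilson interval of 14.2% to 44.4%, which overlaps the 34.5% to 61.7% of ctrl 5. The SD of the share was 16.3 percentage points in the cold and 0.486 in ctrl, on 21 to 30 reads per cold mouse and 31 to 48 per ctrl mouse. The Wilson interval of each ctrl mouse was far wider than this ctrl SD, and the difference in spread was not tested. The log2 fold changes were -0.51 ± 0.35 (SE) for Fbln1-201 and -0.20 ± 0.39 for Fbln1-202.

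Fbln2 encodes fibulin-2, which binds tropoelastin and fibrillin at the surface of elastic fibres (ENSMUSG00000064080.12, chromosome 6, 91212455 to 91272540, plus strand). It had 152, 85.5 and 121 CPM in cold 7, 12 and 16, against 139, 77.6 and 121 CPM in ctrl 5, 6 and 10. The 2 groups had nearly the same high, middle and low values, with means of 119.5 ± 33.1 CPM in the cold and 112 ± 31.4 CPM in ctrl (SD, n = 3 each). For Fbln2 the log2 fold change was 0.11 ± 0.21 (SE), interval -0.34 to 0.55, and -0.12 to 0.32 with 1 mouse left out.

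Fbln2 differs between its 2 main models by 1 exon, printed here because its reads divide over both. Exon 9 of Fbln2-201 (chr6:91259630-91259770, capitals) has 141 bases, or 47 codons, and encodes an EGF-like repeat. Fbln2-202 joins the flanking exons directly.
Fbln2-201: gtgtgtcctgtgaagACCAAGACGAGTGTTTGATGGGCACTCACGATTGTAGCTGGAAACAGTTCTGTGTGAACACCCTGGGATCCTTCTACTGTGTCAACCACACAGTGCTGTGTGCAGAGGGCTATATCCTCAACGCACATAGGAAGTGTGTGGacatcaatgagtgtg
Fbln2-202: gtgtgtcctgtgaagacatcaatgagtgtg

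Of the 678 reads of Fbln2, 55.6% were assigned to the model with the exon and 41.7% to the model without it. Fbln2-202 took 44.5%, 41.2% and 51.6% in cold 7, 12 and 16, against 44.6%, 35.6% and 35.0% in ctrl 5, 6 and 10. The mean shares were 45.8 ± 5.31% in the cold and 38.4 ± 5.38% in ctrl (SD, n = 3 each), and ctrl 5 was as high as cold 7. By transcript, the log2 fold change was 0.35 ± 0.28 (SE) for Fbln2-202 and -0.08 ± 0.22 for Fbln2-201.

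Efemp1 encodes fibulin-3, an extracellular glycoprotein with EGF-like repeats (ENSMUSG00000020467.15, chromosome 11, 28853204 to 28926743, plus strand). It had 157, 109.9 and 157 CPM in cold 7, 12 and 16, against 189, 110.5 and 256 CPM in ctrl 5, 6 and 10. Ctrl 10 was far above the rest, and ctrl 6 lay at the level of cold 12. The means were 141 ± 27.3 CPM in the cold and 185 ± 72.8 CPM in ctrl (SD, n = 3 each). The log2 fold change of -0.37 ± 0.23 (SE), interval -0.85 to 0.10, was -0.05 without ctrl 10 and -0.66 without ctrl 6. Efemp1-201 held 74.0% of its 983 reads and Efemp1-203, a model with 4 exons against 11 in Efemp1-201, held 25.8%. Their shares overlapped between groups. Efemp1-203 starts at 28915667 and ends at the same base as Efemp1-201, so it lacks the 5′ part. With counting rules not given in the sources used here, cDNA that stops short could be assigned to it.

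**Figure D2:**
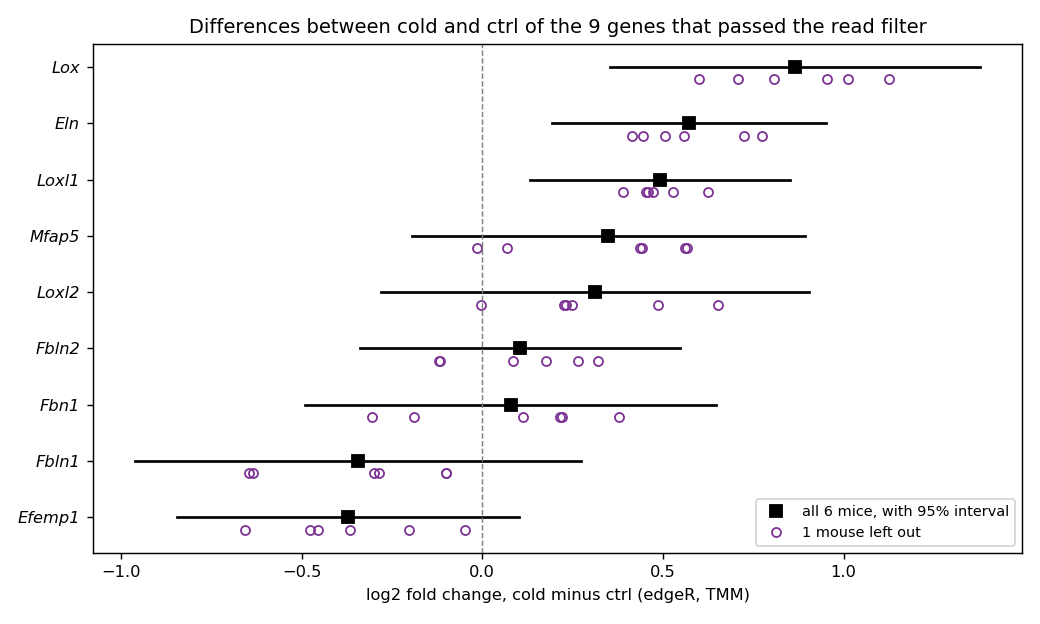
Log2 fold changes, cold minus ctrl (x axis), of the 9 genes that passed the read filter (y axis). Squares are edgeR estimates from all 6 mice with their 95% intervals, and circles are estimates with 1 mouse left out. The intervals of Lox (0.35 to 1.38), Eln (0.19 to 0.95) and Loxl1 (0.13 to 0.85) lie above 0 and the other 6 span it, with circles on both sides of 0 for Mfap5, Loxl2, Fbln2 and Fbn1.

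At the level of transcripts, 17 transcripts of these genes could be tested, with 11 log2 fold changes above 0 and 6 below. None was called (edgeR, adjusted p of 0.436 to 0.976), beside 0.381% of all 12325 transcripts tested, and 6 had an unadjusted p under 0.05, beside 6.87%. All 6, of Lox, Loxl1 and Eln, were higher in the cold, as were 3.95% of all transcripts at that p. Every cold mouse was above every ctrl mouse for Lox-201, Lox-202, Loxl1-201 and Mfap5-201, and for 5.57% of all transcripts tested. The reverse held for none of the 17 and for 6.99% of all. For usage, which asks how a gene's reads divide over its transcripts, Lox, Eln, Fbn1, Fbln1, Fbln2, Mfap5 and Efemp1 could be tested. By edgeR's diffSpliceDGE 0 of these 7 passed (adjusted p = 1.00 for each), beside 0 of all 2624 genes tested, and 0 of the 7 had an unadjusted p under 0.05, beside 0.953% of all.

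**Figure D3:**
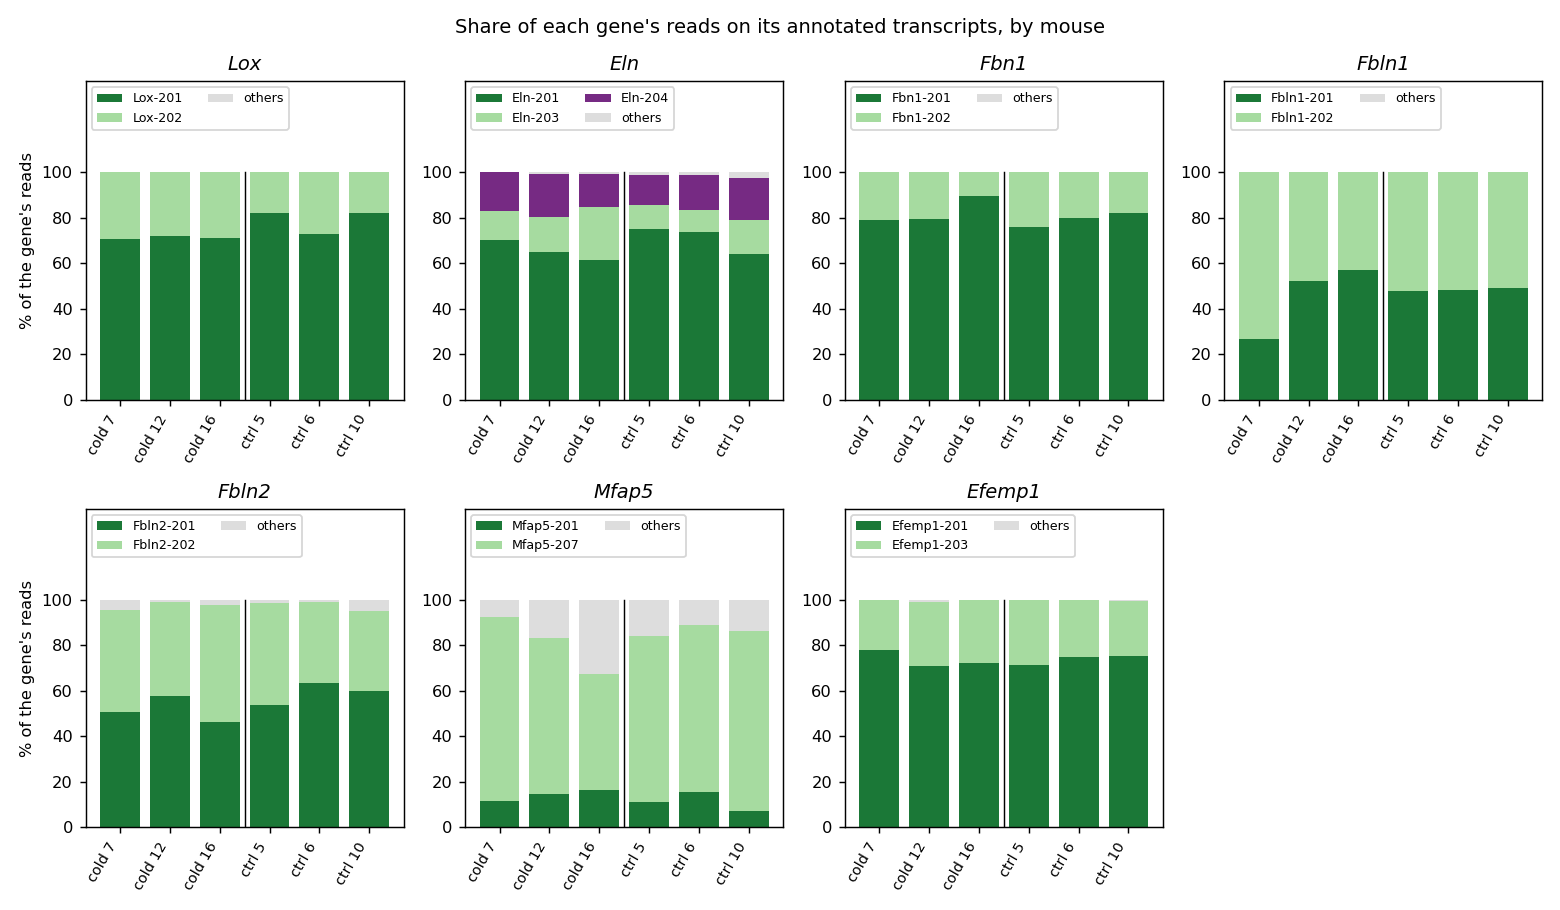
Share of each gene's reads on its annotated transcripts (y axis, % of the gene's reads) in each mouse, cold mice left of the black line and ctrl mice right of it. Transcripts under 10% of a gene's reads are joined as others. Fbln1-201 takes 26.7% in cold 7 and 47.9% to 57.1% in the other 5 mice, and Mfap5-207 takes 51.0% in cold 16 and 68.3% to 80.6% elsewhere.

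The order of the genes by level was compared within mice, whatever their group, as CPM per kb of annotated transcript. Efemp1 was highest at a mean of 92.1 CPM per kb (62.0 to 144 over the 6 mice), followed by Mfap5 at 61.0 (33.6 to 99.7) and Eln at 39.0 (25.5 to 55.2). Fbln2 at 24.99 (16.7 to 32.7) and Loxl1 at 22.5 CPM per kb (18.1 to 29.3) came next. Fbln1 at 11.6 (7.19 to 17.5), Lox at 9.55 (5.02 to 17.0), Loxl2 at 6.47 (4.18 to 10.1) and Fbn1 at 6.33 CPM per kb (3.93 to 9.54) were lower, and Loxl3 was last at 2.33 (0.893 to 3.76).

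Of the 9 steps between neighbours, Loxl1 over Fbln1 and Fbn1 over Loxl3 had the same direction in 6 of 6 mice and ranges that did not overlap. The mean log2 ratio was 1.01 ± 0.59 (SD, n = 6) for Loxl1 over Fbln1 and 1.51 ± 0.51 for Fbn1 over Loxl3. Each had an exact two-sided sign-flip permutation p of 0.03125, the smallest that 6 mice allow, and 0.141 after adjustment over the 9 steps. With that floor and 2 such steps, no step could pass, so the 0 of 9 that passed does not measure how firm the order is. The order was also taken from these same values. The other 7 neighbours had overlapping ranges, and Fbln1 and Lox, with 3 mice on each side, changed places when the longest coding transcript was used as the length. By CPM with no division by length, the order put Eln and Fbln2 above Mfap5, and Fbn1, whose mean transcript length is 10.3 kb, above Lox and Fbln1. Fbn1 ranked 9 per kb and 6 by CPM, and Mfap5 2 per kb and 4 by CPM. Whether reads rise with transcript length in these nanopore libraries was not tested, so each order holds only for its own measure.

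**Figure D4:**
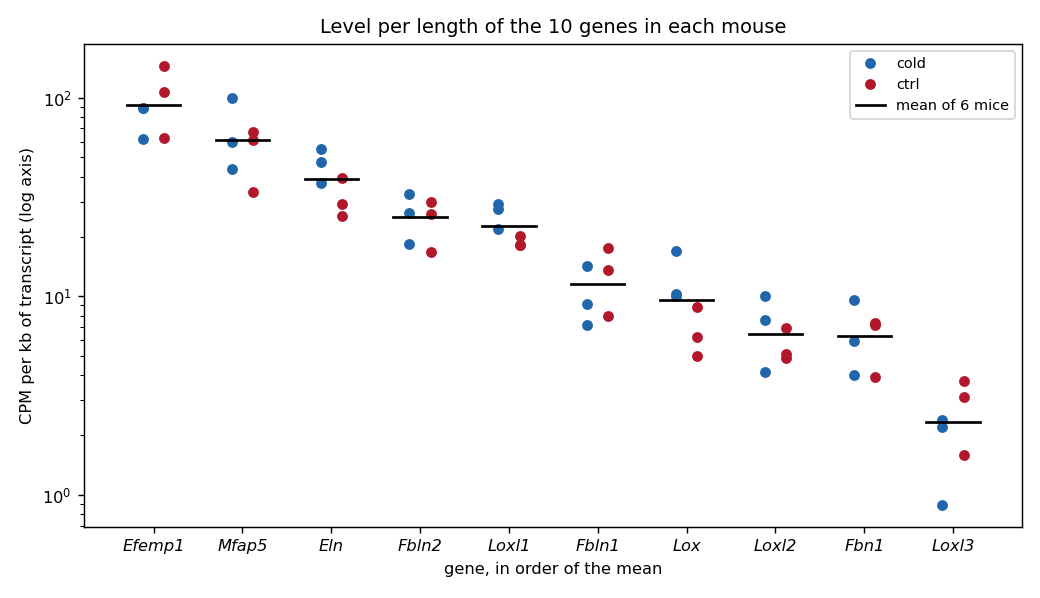
Level of the 10 genes as CPM per kb of transcript (y axis, log scale), in the order of the mean over 6 mice (black lines). Each point is a mouse, cold (blue) left of ctrl (red). The means run from 92.1 CPM per kb for Efemp1 to 2.33 for Loxl3, and most neighbours overlap. The order by CPM with no division by length differs.

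Mice differed from each other across these genes within each group. Cold 7 was the highest cold mouse in 8 of the 10 genes and cold 12 the lowest in 8. Ctrl 6 was the lowest ctrl mouse in 7. Summed over the 10 genes, cold 7, 12 and 16 held 989, 618 and 814 CPM, against 758, 535 and 865 CPM in ctrl 5, 6 and 10. Lox departed from this order: it was lowest in cold 7 among cold mice and highest in ctrl 6 among ctrl mice. Cold 12 and ctrl 6 were the libraries with the most reads of their groups, 1194134 and 1341592, and the part of depth in this order was not tested.

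Summed marker lists of the cell types that make these proteins overlapped between groups. The fibroblast and adipocyte precursor list (8 genes, among them Pdgfra and Dcn) summed to 2519, 2228 and 2184 CPM in cold 7, 12 and 16, against 2708, 1831 and 2483 CPM in ctrl 5, 6 and 10, and 0 of 8 were called. The smooth muscle and pericyte list summed to 655, 589 and 742 CPM in the cold and 659, 616 and 679 CPM in ctrl, with 0 of 6 tested genes called. Of these, 2 had an unadjusted edgeR p under 0.05, beside 8.43% of all genes, and went opposite ways. Acta2 had 172 ± 27.8 CPM in the cold and 121 ± 41.1 CPM in ctrl, and Rgs5 191 ± 23.2 CPM in the cold and 261 ± 57.0 CPM in ctrl. The mesothelial list (5 genes), for the cells that line the fat pad, summed to 132, 62.1 and 71.5 CPM in the cold and 175, 58.2 and 164 CPM in ctrl, with 0 of 3 called. Upk3b was the 1 gene of this list with an unadjusted edgeR p under 0.05, beside 8.43% of all genes. Its mean was lower in the cold. Lrrn4, which could not be tested and is named after its values were seen, had 2.89 ± 0.416 CPM in the cold and 14.5 ± 6.80 CPM in ctrl. Krt19 went the other way, with 18.9 ± 4.70 CPM in the cold and 12.3 ± 6.99 CPM in ctrl. The fibroblast and mesothelial sums were lowest of ctrl in ctrl 6 and highest of cold in cold 7, as were most of the 10 genes. Most of the fibroblast sum in cold 7 was Dcn, at 1579 CPM. Dpp4, Dcn and Lum were highest of cold in cold 7, but Pdgfra, Pi16, Cd34 and Col15a1 in cold 16 and Ly6a in cold 12. No marker of any of these 3 lists was at 0 in all mice, and their part in the differences of the 10 genes was not tested.

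**Figure D5:**
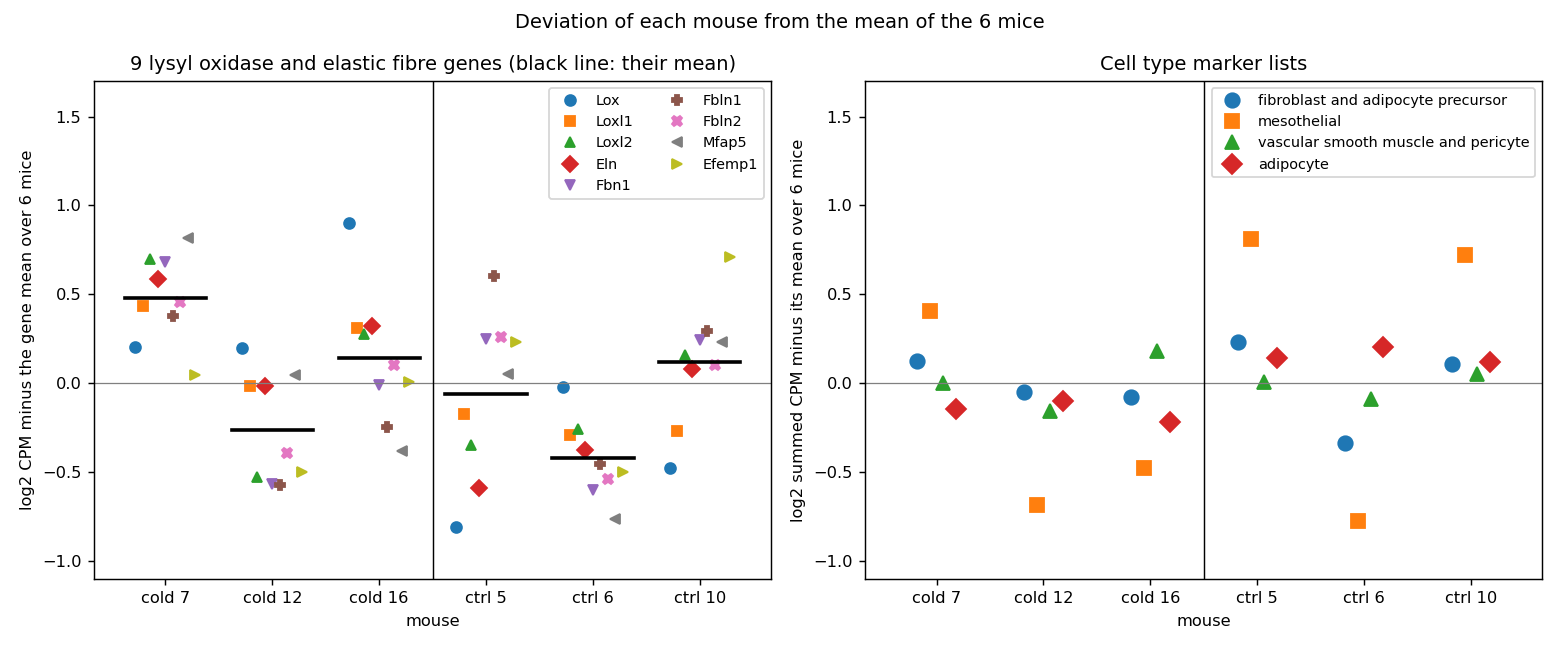
Deviation of each mouse from the mean of the 6 mice on the log2 scale (y axes), for the 9 tested genes (left panel, CPM per gene, black lines are their mean) and for 4 marker lists (right panel, summed CPM). Cold mice are left of the black vertical line and ctrl mice right of it. The mean over the 9 genes was highest in cold 7 (0.48) and lowest in ctrl 6 (-0.42).

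Other genes of the pathway were read from 4 lists, naming abundant genes of each. Among 19 elastic fibre and microfibril partners, 13 could be tested and 0 were called in either direction, with 6 log2 fold changes above 0, 7 below and a median of -0.05. At an unadjusted p under 0.05 there was 1, Mfap4, higher in the cold and named after its values were seen, beside 8.43% of all genes. Fbln5, the fibulin that carries tropoelastin to microfibrils, had 93.0 ± 3.55 CPM in the cold and 80.2 ± 10.0 CPM in ctrl (SD, n = 3 each), a log2 fold change of 0.25 ± 0.16 (SE). The latent TGF-beta binding proteins Ltbp3 (117 ± 23.1 CPM in the cold and 118 ± 3.26 CPM in ctrl) and Ltbp4 (215 ± 45.4 CPM in the cold and 229 ± 54.8 CPM in ctrl) were close between groups.

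Of 15 genes for lysyl oxidase activation, copper supply and substrates, 12 could be tested and 0 were called, with 9 log2 fold changes above 0, 3 below and a median of 0.10. None had an unadjusted p under 0.05. The collagen substrates Col3a1 and Col1a2 had 697 ± 232 and 385 ± 67.4 CPM in the cold, against 756 ± 162 and 411 ± 48.1 CPM in ctrl, and Col4a1 had 588 ± 121 CPM in the cold and 553 ± 51.8 CPM in ctrl. For these 3 the difference was smaller than the SD of the cold group.

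Of 14 TGF-beta ligands, receptors and targets, 13 could be tested. Log2 fold changes were above 0 in 6 and below 0 in 7, with a median of -0.17. Tgfbr3, the co-receptor betaglycan, had 138 ± 14.97 CPM in the cold and 177 ± 12.1 CPM in ctrl. Its groups did not overlap, as 7.7% of all genes lay lower in the cold. It had an unadjusted edgeR p of 0.0298, where 8.43% of all genes were under 0.05, and was not called. Thbs1, an activator of latent TGF-beta, had 189.7 CPM in ctrl 10 and 18.7 to 82.7 CPM in the other 5 mice.

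Of 14 elastin-degrading proteases and protease inhibitors, 10 could be tested and 0 were called, with 3 log2 fold changes above 0, 7 below and a median of -0.13. An unadjusted edgeR p under 0.05 was seen for 2, beside 8.43% of all genes. These were Prtn3 and Timp3, both lower in the cold and named after their values were seen. Timp3 had 223 ± 31.9 CPM in the cold and 279 ± 14.7 CPM in ctrl, without overlap, as 7.7% of all genes lay lower in the cold. The cathepsins Ctsb and Ctsl had 1390.1 ± 69.2 and 786 ± 72.5 CPM in the cold, against 1404 ± 34.6 and 753 ± 52.0 CPM in ctrl. Timp2, an inhibitor of matrix metalloproteinases, had 286 ± 31.5 CPM in the cold and 327 ± 81.3 CPM in ctrl (SD, n = 3 each).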

How the data were processed

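For each of 6 mice the authors deposited 2 files, X1 and X2, of raw counts of reads on annotated transcripts. Reads were aligned with minimap2 to GRCm38, per the submitters' processing notes. How reads were counted (tool, strand, reads that match several transcripts) is not given in the sources used here. Counts of X1 and X2 differed by about the sampling noise (chi-square per degree of freedom 1.02 to 1.06) and were summed to 1 sample per mouse. Of 61729 transcript identifiers, 61538 matched GENCODE M21, and the other 191 held 0.139% to 0.165% of reads.

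Tests over 9772 genes and 12325 transcripts used edgeR 4.0.16 (quasi-likelihood, TMM, filterByExpr with minimum count 10, Benjamini-Hochberg over all tested, threshold 0.05), and usage with diffSpliceDGE. These tests were checked on simulated data. Log2 fold changes are cold minus ctrl. CPM of genes is relative to reads assigned to genes, and CPM of transcripts to all reads. Length is the read-weighted mean annotated transcript length. Alternatives were DESeq2 1.42.0, limma-voom 3.58.1, RLE size factors, other filters, X1 or X2 alone, coding transcripts alone and each mouse left out. Named are all 10 genes, their transcripts with at least 10% and 10 of the gene's reads, and from each list the 3 most abundant genes and those past the threshold. A result that this rule takes is not reported here. The genes and lists were chosen with earlier results of these data known. Wilson intervals cover counting error only. Depth and precision per mouse are given with the libraries. Sequences are those of the GENCODE M21 transcripts.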

Additional observations from a re-analysis of the deposited data

How the results depend on the processing

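Without a read filter, edgeR called 371 genes, 2 of them among the 10 described (Lox and Eln), and 260 transcripts, beside 64, 0 and 47 as reported. The X2 files alone gave 38 genes and 26 transcripts, and the X1 files alone 30 transcripts. With 1 mouse left out, called genes ranged from 35 (without cold 12) to 199 (without cold 7, 106 without ctrl 5), of the 10 genes from 0 to 1 (Lox, without cold 7), called transcripts from 26 to 162, and genes called for usage from 0 to 1. In CPM with no division by length, 4 steps of the order per kb kept its direction in every mouse, beside 2. Counting steps in that direction, 4 passed the threshold, beside 0. In that setting Mfap5 lay below Eln and Loxl2 below Fbn1 in every mouse, against the order per kb. These reversed steps also reach the smallest two-sided p and entered the adjustment, so the 4 do not measure how firm the order per kb is. With 5 mice the smallest p of a step is 0.0625, so no step can pass. No paired analysis was possible because the mouse numbers are not shared between the groups. Of 126 recomputed log2 fold changes of the genes, 124 moved by less than 1 SD between mice, and 2, both of Loxl1 (X1 or X2 alone, 0.30 and 0.71), moved by more. The cause was not tested. Moves under 1 SD include changes of sign, for Loxl2 and Mfap5 without cold 7, and for Fbn1 and Fbln2 without cold 7 or without ctrl 6. Depth limits what can be seen for Loxl3, with 4 to 16 reads per mouse, and for shares of Lox and Fbln1 transcripts, which rest on 21 to 62 reads per mouse.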

Other observations

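The genes whose deviations over the 6 mice were most like the mean of the 9 tested lysyl oxidase and elastic fibre genes were Naalad2, a peptidase, Entr1, an endosomal trafficking regulator, Syne2, a nuclear envelope spectrin repeat protein, Met, the receptor of hepatocyte growth factor, and Zzz3, a zinc finger protein. Likeness was the root mean square difference on the log2 scale, which was 0.0600 for Naalad2, 0.0672 for Entr1, 0.0698 for Syne2, 0.0736 for Met and 0.0749 for Zzz3. The median over 9763 other genes was 0.379. These 5 genes were taken as the closest of all genes tested over 6 mice, so closeness is what chose them.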
